A study of Caenorhabditis elegans with 4 samples.

Results

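The peaks described here are those that a control IgG gave on chromosome IV of Caenorhabditis elegans, taken as every row for that chromosome in 3 deposited peak lists. There were 356 such peaks among 1773 in all, with 31 in the list of IgG replicate 1, 166 in that of IgG replicate 2 and 159 in the combined list of the series. The lists come from chromatin immunoprecipitation with sequencing (ChIP-seq) on mixed-stage embryos of N2, the wild-type laboratory strain, from a population of males and hermaphrodites at 20 °C. Embryos were fixed in 2% formaldehyde for 30 minutes. The series holds 4 samples, 2 IgG libraries and 2 input DNA libraries, and no input file was used here. The labels give the antibody as rabbit control IgG with no target, and in the same entry as a polyclonal antibody to mouse whole IgG. Whether separate cultures gave the replicates is not stated in the labels. The combined list is not independent of the replicate lists. Peaks of the 3 lists also overlapped each other, and merged where they did, the 356 peaks fell on 230 separate loci. A locus is a stretch that overlapping peaks of any list cover without a break.

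A control IgG has no intended partner in chromatin, and its peaks mark places where DNA is recovered, or reads pile up, without a specific antibody. Such lists serve as the negative background for ChIP with specific antibodies. Chromosome IV carries most of the worm's piRNA genes, which encode the small RNAs bound by the germline Argonaute protein PRG-1 and used to silence foreign and repeated sequences. These genes are short separate transcription units that sit densely in a pair of broad spans, between and inside ordinary genes. The spans were taken as 4.5 to 7.0 Mb and 13.5 to 17.2 Mb of WormBase build WS220, the build named in the file headers. The peak lists name no gene, and the gene table at hand is of another build, so no peak was assigned to a piRNA gene or to any other gene, and no sequence is shown.

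Replicate 2 placed most of its chromosome IV peaks inside the piRNA-rich spans, and replicate 1 did not. In replicate 2, 88 of 166 peaks had their midpoint in a span, 53.0% (exact 95% interval 45.1 to 60.8%), while the spans make up 35.4% of the chromosome's extent. In replicate 1 the count was 10 of 31, 32.3% (16.7 to 51.4%), and in the combined list 66 of 159, 41.5% (33.8 to 49.6%). On the other 5 nuclear chromosomes, the same coordinates held 25.7% of replicate 2 peaks, 26.2% of replicate 1 peaks and 25.8% of combined peaks, against 28.4% of their extent. Chromosomes I, II and III end before the second span does, so less of it was counted there. Divided by share of extent, the replicate 2 share was 1.5 on chromosome IV and 0.62 (X) to 1.21 (chromosome V) elsewhere. In the combined list this ratio was 1.17 on chromosome IV, close to the highest elsewhere, 1.13 (chromosome I), with 0.556 (X) the lowest. In replicate 1 it was 0.91, within the 0.448 (chromosome V) to 2.3 (chromosome III) elsewhere. The values of the other chromosomes are a positional background and have no link to piRNA genes. The intervals cover counting error alone and take each peak as an independent event. No test over peaks was run, since peaks of a list share a library and lie in runs, and whether chromosome IV or the replicates differ in these shares was not tested.

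The spans differed from each other. The first span had 12.4 peaks per Mb in replicate 2 (31 peaks in 2.5 Mb), 0.800 in replicate 1 (2 peaks) and 5.60 in the combined list (14 peaks). The second span had 15.4 peaks per Mb in replicate 2 (57 peaks in 3.7 Mb), 2.16 in replicate 1 (8 peaks) and 14.1 in the combined list (52 peaks). The second span thus stood above the pooled density of the other nuclear chromosomes in each list. This pooled density was 7.55 per Mb in replicate 2, 1.48 in replicate 1 and 8.07 in the combined list. The first span stood above the pooled density in replicate 2 and below it in replicate 1 and in the combined list. Of its 31 replicate 2 peaks, 10 lay within 27362 bp, from 6703563 to 6730924. The highest density of a single other chromosome was 9.89 per Mb in replicate 2 (chromosome III) and 8.99 in the combined list (the X). In replicate 1 it was 2.17 (chromosome II), so there the second span did not stand above every other chromosome. The stretch between the spans held 6.92, 2.31 and 8.46 peaks per Mb in replicate 2, replicate 1 and the combined list, and the stretch left of the first span 7.11, 1.33 and 8.22.

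**Figure D1:**
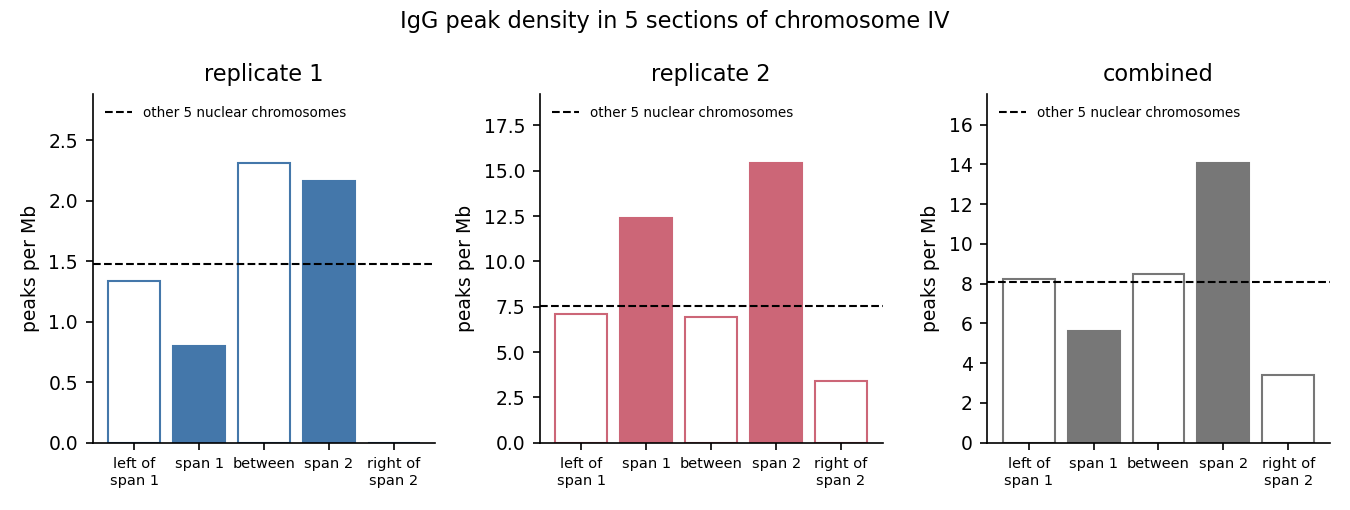
Peaks per Mb (y axis) in 5 sections of chromosome IV (x axis) for each of the 3 lists. Filled bars are the piRNA-rich spans, open bars the rest of the chromosome, and the dashed line is the density on the other 5 nuclear chromosomes. Replicate 2 stands at 12.4 and 15.4 peaks per Mb in the spans, against 6.92 and 7.11 between them and to their left. The y scales differ between panels.

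The excess in replicate 2 was one of many narrow peaks, more than of covered length. Its 88 peaks in the spans covered 45915 bp, which is 39.8% of the 115272 bp covered on the chromosome. Replicate 1 peaks in the spans covered 4471 of 28296 bp, 15.8%, and combined peaks 18303 of 46816 bp, 39.1%. Runs were defined as 3 or more peaks of a list with at most 10 kb between neighbours. Of the 88 replicate 2 peaks in the spans, 43 lay in runs, and of the 78 outside the spans 16 did. On the other nuclear chromosomes 290 of 623 did, 46.5%, so the share in the spans was near that background and the share outside them was below it. Among peaks outside runs, a count added after the data were seen, 42.1% of replicate 2 peaks were in the spans.

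The spans were not evenly filled. In replicate 2 the outer 500 kb at each span edge, 2.0 Mb in all, held 41 of the 88 peaks, or 20.5 per Mb, and the inner 4.2 Mb held 47, or 11.2 per Mb. The outer parts were not alike. Of the 41 peaks, 14 lay in the last 500 kb of the first span, all between 6668767 and 6730924. There the combined list had 1 peak and replicate 1 had 0. In the combined list the outer and inner densities were 12.5 and 9.76 per Mb, and in replicate 1 they were 3.0 and 0.952 per Mb on 6 and 4 peaks. With the spans narrowed by 500 kb at each end, 28.3% of replicate 2 peaks were inside, against 24.0% of the extent. By bins of 1 Mb, replicate 2 had its highest count of the chromosome from 6 to 7 Mb, with 20 peaks, where the combined list had 3 and replicate 1 had 0. From 15 to 16 Mb replicate 2 had 16 peaks, the combined list 7 and replicate 1 had 1. The combined list instead had its highest counts from 11 to 12 Mb, outside the spans, with 22 peaks against 8 in replicate 2 and 4 in replicate 1, and from 14 to 15 Mb, inside, with 21 peaks against 14 and 3. Replicate 1 left 6 of the 18 bins empty, and the other lists left 0.

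Peaks in the spans were narrower than those outside in each list. The median width was 453 bp in the spans and 691 bp outside in replicate 1, 364 bp and 514.5 bp in replicate 2, and 211 bp and 235 bp in the combined list. Peaks at least 1000 bp wide numbered 0 of 10 in the spans and 6 of 21 outside in replicate 1, and 9 of 88 and 15 of 78 in replicate 2. Of those outside, 6 in replicate 1 and 11 in replicate 2 lay between the spans. Median widths between the spans were 819, 574 and 240 bp in replicate 1, replicate 2 and the combined list. Left of the first span they were 369, 379.5 and 228 bp, which in replicate 1 is below the median in the spans. Over the whole chromosome the median width was 515 bp in replicate 1, against 549.5 bp on the other nuclear chromosomes. In replicate 2 it was 408.5 bp on chromosome IV and 488 bp elsewhere, and among combined peaks 232 bp and 226 bp. These differences were not tested.

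**Figure D2:**
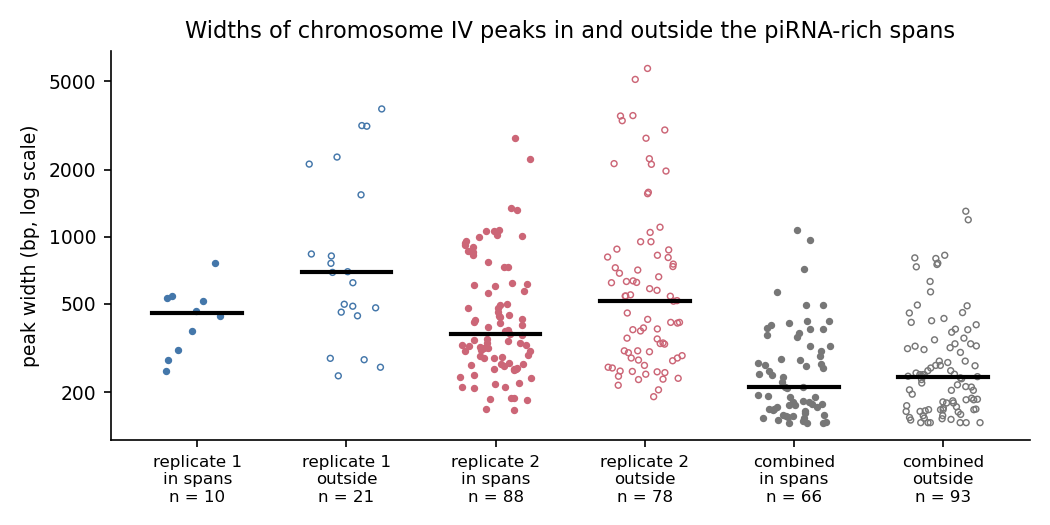
Width in bp (y axis, log scale) of each chromosome IV peak, by list and by position in (filled) or outside (open) the piRNA-rich spans. Each point is a peak and the black line is the median. The medians in the spans are 453, 364 and 211 bp in replicate 1, replicate 2 and the combined list, below the 691, 514.5 and 235 bp outside, and the groups overlap widely.

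The score of a peak is the authors' own, on a scale the files do not name, so it is used here only within a list. In replicate 2 the median score was 87.0 in the spans and 101.6 outside, and it was 76.3 in the first span and 103.4 in the second. At or above the median score of the whole replicate 2 list stood 34 of 88 peaks in the spans and 39 of 78 outside. In the first span that number was 6 of 31. The many replicate 2 peaks of the first span were therefore mostly from the lower part of the list. In the combined list the order of the spans was the other way round, with median scores of 6.265 in the first span and 4.03 in the second, and 4.33 outside both. In replicate 1 the medians were 80.7 in the spans and 76.5 outside.

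Most replicate 1 peaks of chromosome IV lay at replicate 2 peaks. With at least 1 bp in common, 26 of 31 were shared, 83.9% (66.3 to 94.55%), beside 72.1% on the other nuclear chromosomes. All 8 replicate 1 peaks of the second span were shared, 1 of 2 in the first span and 17 of 21 outside the spans. From the other side, 29 of 166 replicate 2 peaks held a replicate 1 peak, 17.5% (12.0 to 24.1%), beside 15.2% elsewhere. The count was 1 of 31 in the first span, 10 of 57 in the second and 18 of 78 outside. The median replicate 2 score was 230.4 for its shared peaks of chromosome IV and 84.0 for the unshared ones. Outside the spans these medians were 459.7 and 84.2, and in the spans 95.4 and 84.0. The number of peaks in a list depends on depth and threshold, neither of which is stated in the sources. The lowest score on chromosome IV was 50.75 in replicate 1 and 50.01 in replicate 2. A peak missing from replicate 1 therefore does not show missing signal.

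Where the replicates shared a peak they often agreed on its edges. In 23 cases a replicate 1 and a replicate 2 peak overlapped each other and no further peak of the other list. Their starts differed by a median of 15 bp and their ends by a median of 17 bp. The median ratio of widths, replicate 2 over replicate 1, was 1.01, with a range of 0.497 to 4.15. Both edges lay within 50 bp of each other in 12 of the 23 cases. Of these, 11 were among the 16 cases outside the spans and 1 was among the 7 cases inside them. That 1 was the peak with the highest replicate 1 score of the chromosome, 305.54, from 15636107 to 15636870, which in replicate 2 ran from 15636092 to 15636862 with a score of 496.93. The combined list had it from 15636102 to 15636820 with a score of 18.69, the third highest of its chromosome IV peaks. Edges were compared on chromosome IV only, so no background from the other chromosomes stands beside these counts. Some cases outside the spans are neighbours in the same run, as those starting at 8572595, 8574220 and 8575995 in replicate 1. The cases are therefore not separate events, and the difference between inside and outside was not tested.

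The share of combined peaks that met a replicate 2 peak was lower on chromosome IV than on the other nuclear chromosomes. The share that met a replicate 1 peak lay within the range of those chromosomes. Neither was tested. Of the 159 combined peaks, 66 overlapped neither replicate, 41.5% (33.8 to 49.6%), beside 30.9% on the other nuclear chromosomes. The shares on single other chromosomes ran from 26.4% on the X to 35.2% on chromosome I. Counted by replicate, 88 combined peaks overlapped a replicate 2 peak (55.3%, beside 65.3% elsewhere) and 40 a replicate 1 peak (25.2%, beside 22.2%). On single other chromosomes these shares ran from 60.2 to 68.6% for replicate 2. For replicate 1 they ran from 12.3% on chromosome III to 28.1% on chromosome V. Of the 159 combined peaks, 53 overlapped replicate 2 alone, 33.3%, beside 46.8% elsewhere. The 35 peaks that overlapped both replicates made up 22.0%, beside 18.5%, and the 5 that overlapped replicate 1 alone 3.14%, beside 3.75%. The unmatched share was 28.6% in the first span (4 of 14), below the share on the other chromosomes, 46.2% in the second (24 of 52) and 40.9% outside the spans (38 of 93). The unmatched peaks were narrow, at a median of 178 bp, where peaks seen in both replicates had 330 bp, and their median combined score was 4.255 against 6.22. Peaks that overlapped replicate 2 alone had a median of 276 bp and a lower median score than the unmatched ones, 3.93. Whether these shares differ between chromosomes beyond the clustering of peaks was not tested.

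**Figure D3:**
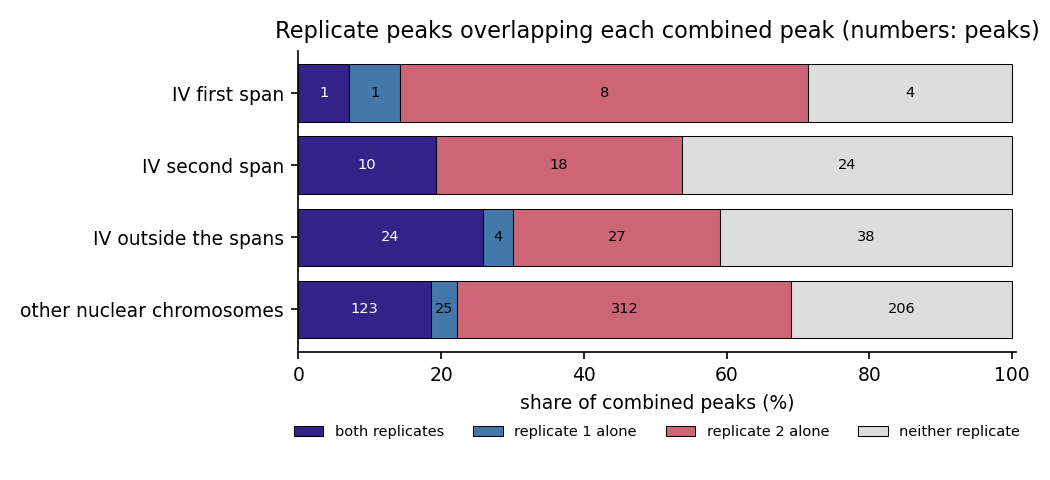
Share of combined peaks (x axis, %) that overlap peaks of both replicates, of a single replicate or of neither, for sets of chromosome IV peaks and for the other 5 nuclear chromosomes. Numbers in the bars count peaks. Neither replicate accounts for 4 of 14 peaks in the first span, 24 of 52 in the second and 38 of 93 outside the spans, against 206 of 666 on the other chromosomes.

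Seen from the replicates, 28 of 31 replicate 1 peaks (90.3%, beside 81.1% elsewhere) and 66 of 166 replicate 2 peaks (39.8%, beside 45.4%) held a combined peak. In the first span 9 of 31 replicate 2 peaks did, in the second 23 of 57 and outside the spans 34 of 78. Of the 100 replicate 2 peaks without a combined peak, 26 had one within 10 kb and 29 had none within 100 kb. A replicate 2 peak could hold several combined peaks, 5 at most, and 20 held at least 2. Of the 230 loci, 111 lay in the spans, 48.3%. Replicate 2 alone made 98 loci, 56 in the spans (57.1%) and 42 outside. The combined list alone made 66, 28 in the spans (42.4%) and 38 outside. Loci present in all 3 lists numbered 22, with 7 in the spans (31.8%) and 15 outside, and their median width was 769 bp. Loci were merged on chromosome IV only, so no share from the other chromosomes stands beside these counts.

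Runs held 59 of 166 replicate 2 peaks on chromosome IV, 35.5% (28.3 to 43.3%), beside 46.5% on the other nuclear chromosomes. In the combined list they held 72 of 159, 45.3% (37.4 to 53.4%), beside 46.5%, and in replicate 1 they held 7 of 31, 22.6% (9.59 to 41.1%), beside 14.8%. Of the 11 replicate 2 runs, 8 lay in the spans. Of the 17 combined runs 7 did, and of the 2 replicate 1 runs 1 did. The runs with most peaks did not coincide between the lists.

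The run with most replicate 2 peaks was in the first span, from 6703563 to 6730924, where 10 peaks of 252 to 997 bp covered 5576 of 27362 bp. Their scores ran from 50.6 to 116.46. Replicate 1 had 0 peaks there. The combined list had 1, from 6703794 to 6703947 with a score of 4.88. To the left in the same span, 3 further replicate 2 peaks between 6668767 and 6675470 had scores of 71.63, 96.76 and 76.32, with 0 peaks in either other list. A comparable run of 5 replicate 2 peaks stood in the second span from 15076826 to 15081973, with widths of 287 to 1064 bp and scores of 94.77 to 247.40, and there the other lists also had 0 peaks. Outside the spans, 7 replicate 2 peaks of 350 to 1045 bp lay from 689049 to 696886, with scores of 63.35 to 136.14. Replicate 1 had 0 peaks there, and the combined list had 2 that scored 3.6 and 3.14. The longest stretch of the chromosome with no peak in any list, 710126 bp, began just beyond the run of 10, at 6730925, and ended at 7441050. The next longest were 497872 bp from 9764954 and 463808 bp from 8581950, both between the spans.

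The run with most combined peaks was in the second span, from 14205887 to 14215182, where 12 combined peaks covered 4954 bp. It was seen by each list. Replicate 2 had 7 peaks there with scores of 56.44 to 750.95, and replicate 1 had 3 that scored 98.16, 68.47 and 52.95. The 964 bp combined peak from 14208070 to 14209033 had a score of 15.74, and the other 11 scored between 2.12 and 6.31. That peak met a replicate 2 peak of 1009 bp (score 530.16) and a replicate 1 peak of 378 bp (98.16). At the right end of the run, a single replicate 2 peak of 2239 bp, from 14213181 to 14215419, stood at a 540 bp replicate 1 peak. The edges of the lists thus differed in this run. A second cluster of this kind lay from 13734343 to 13736778 in replicate 2, with 5 peaks that scored 50.85 to 103.37. Replicate 1 had 2 peaks there (78.85 and 65.22), and the combined list had 5 (2.90 to 7.27).

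Between the spans, the run from 8572595 to 8581949 held 4 peaks whose edges nearly coincided in the replicates. Replicate 1 had 4 peaks there, of 1542, 759, 2119 and 3749 bp with scores of 74.95, 59.73, 137.09 and 204.63. Replicate 2 had peaks at the same places of 1560, 753, 2114 and 3485 bp with scores of 786.67, 632.31, 1578.36 and 2531.82, plus a peak of 621 bp (334.42) that replicate 1 lacked. Of the 8 edges of these 4 peaks, 7 differed between the replicates by 2 to 15 bp and the right end of the widest one by 255 bp. The replicate 2 score of 2531.82 was the highest of chromosome IV and rank 12 in its whole list. The combined list split the stretch into 8 peaks of 264 to 803 bp with scores of 2.23 to 12.64.

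**Figure D4:**
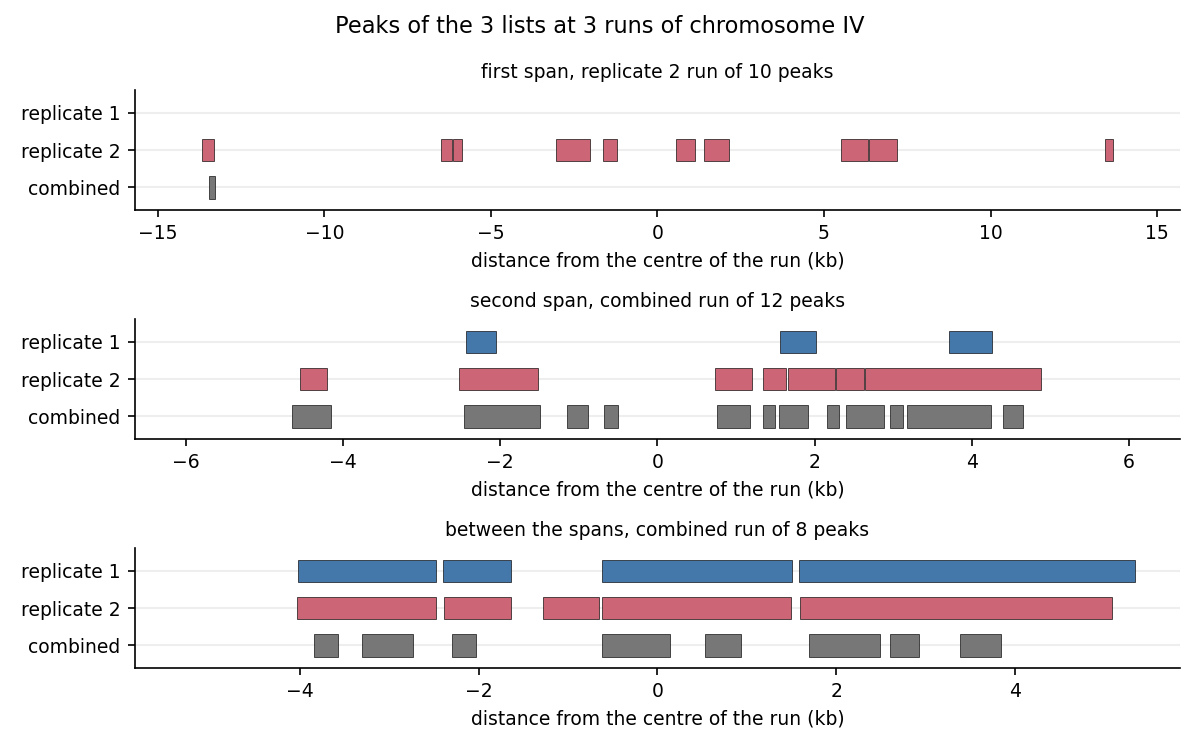
Peaks of replicate 1, replicate 2 and the combined list (rows, drawn to scale) at the replicate 2 run with 10 peaks in the first span, the combined run with 12 peaks in the second span and the combined run with 8 peaks between the spans. The x axis is the distance in kb from the centre of the run. The first run has 10 replicate 2 peaks, 0 replicate 1 peaks and 1 combined peak, whereas in the last one the replicates share 4 peaks with nearly the same edges.

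Other wide peaks lay between the spans as well. Replicate 2 had a 3500 bp peak from 12315941 to 12319440 with its second highest score on the chromosome, 1642.82. Replicate 1 had 3156 bp at this place with a score of 87.56, and the combined list had 2 peaks, of which the higher scoring one was 1301 bp wide and scored 6.22. Its 1301 bp made it the widest combined peak of the chromosome. At 12730431 to 12732709 replicate 1 had 2279 bp (110.47) and replicate 2 had 2240 bp (230.39), with no combined peak. A replicate 1 peak of 3136 bp from 11610621 to 11613756 (72.5) met 2 replicate 2 peaks and 3 combined peaks. From 11070865 to 11075952, a replicate 2 peak of 5088 bp (713.73) held 5 combined peaks that scored 2.33 to 10.72, and replicate 1 had none. The widest peak of the chromosome, 5699 bp in replicate 2 from 4416394 to 4422092, left of the first span, scored 434.37 and held a single combined peak of 179 bp. High scores in replicate 2 were also found without replicate 1, at 13360467 to 13362049 (1354.20), between the spans, and at 3206332 to 3209651 (1153.02), left of the first span. These held 2 and 3 combined peaks. Further wide combined peaks were 1191 bp from 11073633 to 11074823, between the spans, and 1072 bp from 14213714 to 14214785, in the second span. Left of the first span was 1 of 825 bp, from 3193209 to 3194033. In this order they scored 2.33, 4.73 and 7.84.

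The 2 highest combined scores of the chromosome belonged to narrow peaks. From 4749930 to 4750171, in the first span, the combined list had 24.03, the highest of the chromosome and rank 4 in its list. The replicate 1 peak there was 311 bp wide and scored 99.16, above the replicate 1 median of 76.8 on the chromosome. The replicate 2 peak was 341 bp wide and scored 95.42. That is above the replicate 2 median of 92.545 on the chromosome and below the median of the whole replicate 2 list. From 3050722 to 3050956, left of the first span, the combined score was 19.32, with 280 bp and 71.62 in replicate 1 and 247 bp and 74.32 in replicate 2. By contrast the replicate 2 peak with the highest score met a best combined score of 9.27. Also in the first span, from 4720537 to 4728123, 3 combined peaks of 180 to 211 bp scored 7.75, 10.01 and 8.38, and of these the middle one met a replicate 1 peak (248 bp, 50.75), while replicate 2 had none. The combined peak from 385140 to 385628 scored 15.26 and met a replicate 2 peak alone (333 bp, 158.80). In the second span, the combined peak from 17087364 to 17087685 scored 14.29, with 280 bp and 82.62 in replicate 1 and 441 bp and 124.99 in replicate 2.

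Between the spans, the remaining high combined scores with support from both replicates were 9.61 at 8015990 to 8016205 and 9.30 at 11324469 to 11324673. In replicate 1 these places scored 62.42 and 90.16, and in replicate 2 they scored 150.49 and 53.75. High replicate 1 scores were also found at 13909760 to 13910288 (186.43, with 58.98 in replicate 2 and 6.33 in the combined list). At 1830997 to 1831692 replicate 1 scored 150.77, with 260.35 in replicate 2 and 7.0 in the combined list. At 1950603 to 1951223 the scores were 140.88, 154.10 and 5.25 in the same lists. The order of peaks by score was thus not the same in the 3 lists. At the chromosome ends, replicate 2 had a 229 bp peak starting at base 1 (241.12) and a last peak from 17492639 to 17492985 (113.40). This last peak sets the extent used for chromosome IV, since no WS220 chromosome length was at hand. Neither end peak met a peak of the other lists, whose first and last peaks lay from 628266 to 17087767 in replicate 1 and from 17312 to 17278585 in the combined list.

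As a whole, chromosome IV held 20.3% of replicate 1 peaks (14.2 to 27.5%), 21.0% of replicate 2 peaks (18.2 to 24.05%) and 19.3% of nuclear combined peaks (16.6 to 22.1%), against 17.5% of the extent. By covered length these shares were 18.45%, 16.95% and 17.5%. Peaks covered 0.162%, 0.659% and 0.268% of chromosome IV and 0.151%, 0.684% and 0.268% of the other nuclear chromosomes in replicate 1, replicate 2 and the combined list.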

How the data were processed

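WormBase WS220 is the build of the coordinates, per the file headers, and the source field of the files names MACS for the authors' replicate lists and MACS v2 for their combined list. The deposited score of each peak has no named scale. Aligner, control, calling threshold and pooling: not given in the sources used here. Read counts were not used here, so depth is unknown. Python 3.11.15 with pandas 2.3.3, NumPy 2.4.6 and SciPy 1.17.1 did the counting, and Matplotlib 3.10.9 the drawing. A peak was placed by its midpoint, and lists were compared by overlaps of at least 1 bp. The extent of a chromosome is the highest peak end in any list. Intervals are exact Clopper-Pearson 95% intervals. The counts of overlaps and of peaks in runs were tested on simulated peaks of a single chromosome. Alternatives changed the overlap, the score minimum, merging, the spans and the gap that defines a run. The members and lists were chosen with earlier results of these data known. Regions named are the 5 highest scoring and 5 widest peaks of each list, the 10 highest scoring combined peaks in both replicates, the 3 runs with most peaks of each list, peaks within 1 kb of an end and the 3 longest peak-free stretches. Other regions were chosen after their values were seen. No gene or sequence was read, since the gene table is of WBcel235.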

Additional observations from a re-analysis of the deposited data

How the results depend on the processing

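Of 52 alternative values, 41 stayed within the exact 95% interval of the reported one. The share of chromosome IV peaks in the spans, counted as covered bp, was 15.8% in replicate 1 and 39.8% in replicate 2. With the spans widened by 500 kb at each end, to 45.7% of the extent, it was 35.5% in replicate 1, 59.0% in replicate 2 and 47.8% in the combined list. These count as within the interval, but the reported shares were for spans of 35.4% of the extent. The interval thus does not judge the excess over the extent, which was smaller with the wider spans in replicate 2 and the combined list. With the spans narrowed by 500 kb at each end, to 24.0% of the extent, the share was 12.9% in replicate 1, 28.3% in replicate 2 and 25.8% in the combined list, which follows in part from the shorter spans. With the replicate lists in place of the combined one it ran from 32.3 to 53.0%. Outside runs, an alternative chosen after seeing the data, replicate 2 had 42.1%, and without its run of 10 peaks 50.0%. With peaks under the median score of their list left out, 62.5% of replicate 1 peaks were shared with replicate 2 and 47.7% of combined peaks met a replicate peak, on fewer peaks of each list. Combined peaks that met a replicate peak made up 25.2 to 55.3% with a single replicate list, lowest without replicate 2, which holds most of the replicate peaks. The shares of peaks in runs and on chromosome IV stayed within their intervals under the alternatives run. The cause of the other shifts was not tested. No paired analysis was possible because the results come from no test and the input samples have no file in use here. Unknown depth limits what the absence of a peak can show.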
